A study of Mus musculus with 2 samples.

Results

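The 39 genes described here encode the proteins that bring fatty acids into muscle, release them from stored triglyceride and oxidise them in mitochondria. The list is one of gene names. Its rule uses no difference between the arrays, but its genes were chosen with earlier results of these data known. Each gene is represented by the brightest non-control probe whose gene name is that of the gene, with Eci1 also taken as Dci and Eci2 as Peci. All 39 were found, among 34740 gene names on the array, and all 39 were well above background on both arrays.

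Fatty acids enter a muscle fibre after lipoprotein lipase has freed them from circulating triglyceride, or are released inside the fibre from lipid droplets, whose surface is coated by perilipins. Acyl-CoA synthetases activate them, the carnitine shuttle carries them into mitochondria, and the beta-oxidation spiral shortens them by repeated oxidation, hydration, oxidation and thiolysis, passing electrons to the respiratory chain through the electron transfer flavoprotein. Many of these genes are known targets of the PPAR nuclear receptors, and muscle uses the pathway most in fasting and endurance exercise.

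RNA of skeletal muscle was hybridised to 2 arrays with a single dye, and both groups were CD2F1/Slc males, 11 weeks of age. The C26 group carried the colon 26 carcinoma, a transplanted tumour that serves as a model of cancer cachexia: 1000000 tumour cells, suspended in 100 µL PBS, were placed under the skin of the flank. The control group received PBS alone. The series concerns the response of cachectic muscle to mechanical loading, but no loading is given in either label, and the sources used here leave out the muscle, the interval since implantation, feeding and any pooling of animals.

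There was 1 array per group, so the spread between animals is unknown, no test was run, and each difference is between these 2 arrays. Both lay on 1 slide and shared a scan time. Signals are given as multiples of the 75th percentile of the array's processed signals (262 intensity units for the control, 249 for C26), called the scaled signal, with pairs of values in the order control, C26. The log2 ratio is C26 over control. The error beside a log2 ratio is that of the scanner software for the spots, 0.20 for a typical gene, and of the 39 genes 37 were read from a single spot per array. Among probes printed in at least 8 copies, the standard deviation between copies corresponds to 0.09 for the log2 ratio of single spots. Of the 14 skeletal muscle markers examined, all 14 were measured and 13 had log2 ratios above 0, with a median of 0.15, from -0.32 for Myh1, the IIx myosin, to 0.36 for Des (desmin).

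The 39 genes as a group stood slightly higher in the C26 array, which does not extend to the whole pathway. The 38 other measured genes of uptake, activation and oxidation had a median log2 ratio of -0.01, with 17 above 0 and 21 below. The median log2 ratio of the 39 genes was 0.25, against 0.04 over the 19668 measured genes. Of the 39, 35 had log2 ratios above 0 (89.7%), against 56.5% of all measured genes. The skeletal muscle markers above, with 13 of 14 above 0 and a median of 0.15, were also higher than the median of all genes. At a size of at least 1.5-fold, 6 of the 39 (15.4%) were higher and none lower in the C26 array, where the shares over all measured genes were 4.37% and 4.83%, or 9.19% in either direction. At least 2-fold, 2 of the 39 (5.13%) were higher and none lower, against 1.25% and 1.15% of all measured genes, or 2.39% in either direction. Most of the values were therefore small. Because the genes were chosen with earlier results of these data known, these counts and shares are a description only. Of the 39, 14 lay more than 2 scanner errors above 0 and none that far below it. The share of all measured genes that far from 0 is not given here, so this count has nothing to be set against. With other scalings of the arrays the median lay between 0.14 and 0.24. By their brightest probes, 30 genes were above 0 under all 7 scalings used, and 3 (Crat, Ehhadh and Abhd5) were below 0 under all. Other Abhd5 probes gave 0.17 and 0.18. The share of all measured genes above 0 lay between 47.5% and 55.0% with the other scalings. The share above 0 under every scaling is not given here. All scalings use the same 2 arrays.

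**Figure D1:**
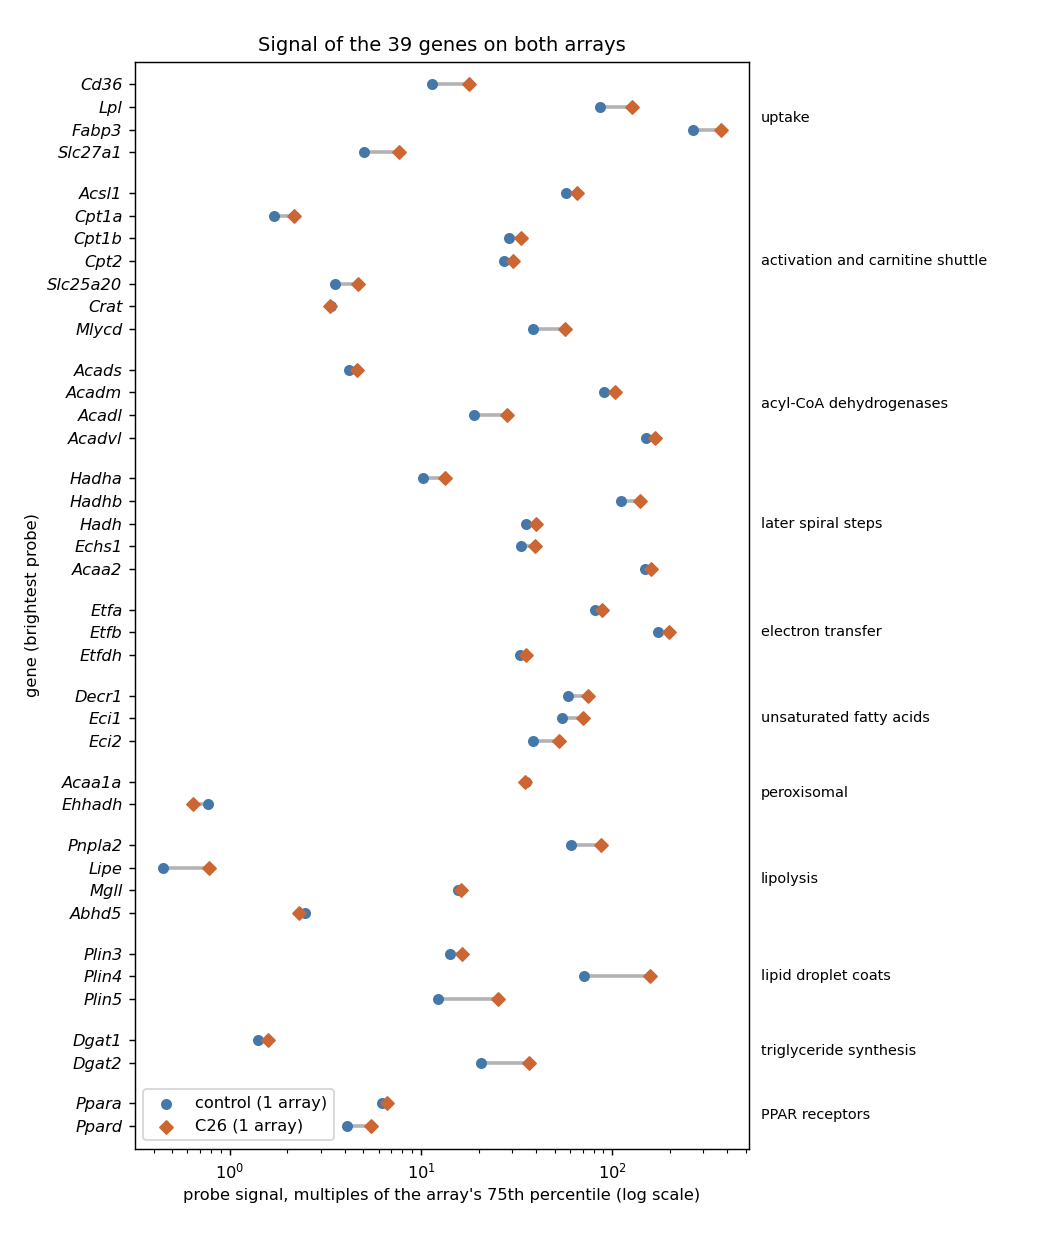
Scaled signal of the brightest probe of each of the 39 genes on the control array (circles) and the C26 array (diamonds), on a log axis in multiples of the array's 75th percentile, grouped by role. Plin4 moves from 71.5 to 158 and Ehhadh from 0.768 to 0.645; levels of different probes are not comparable with each other.

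**Figure D2:**
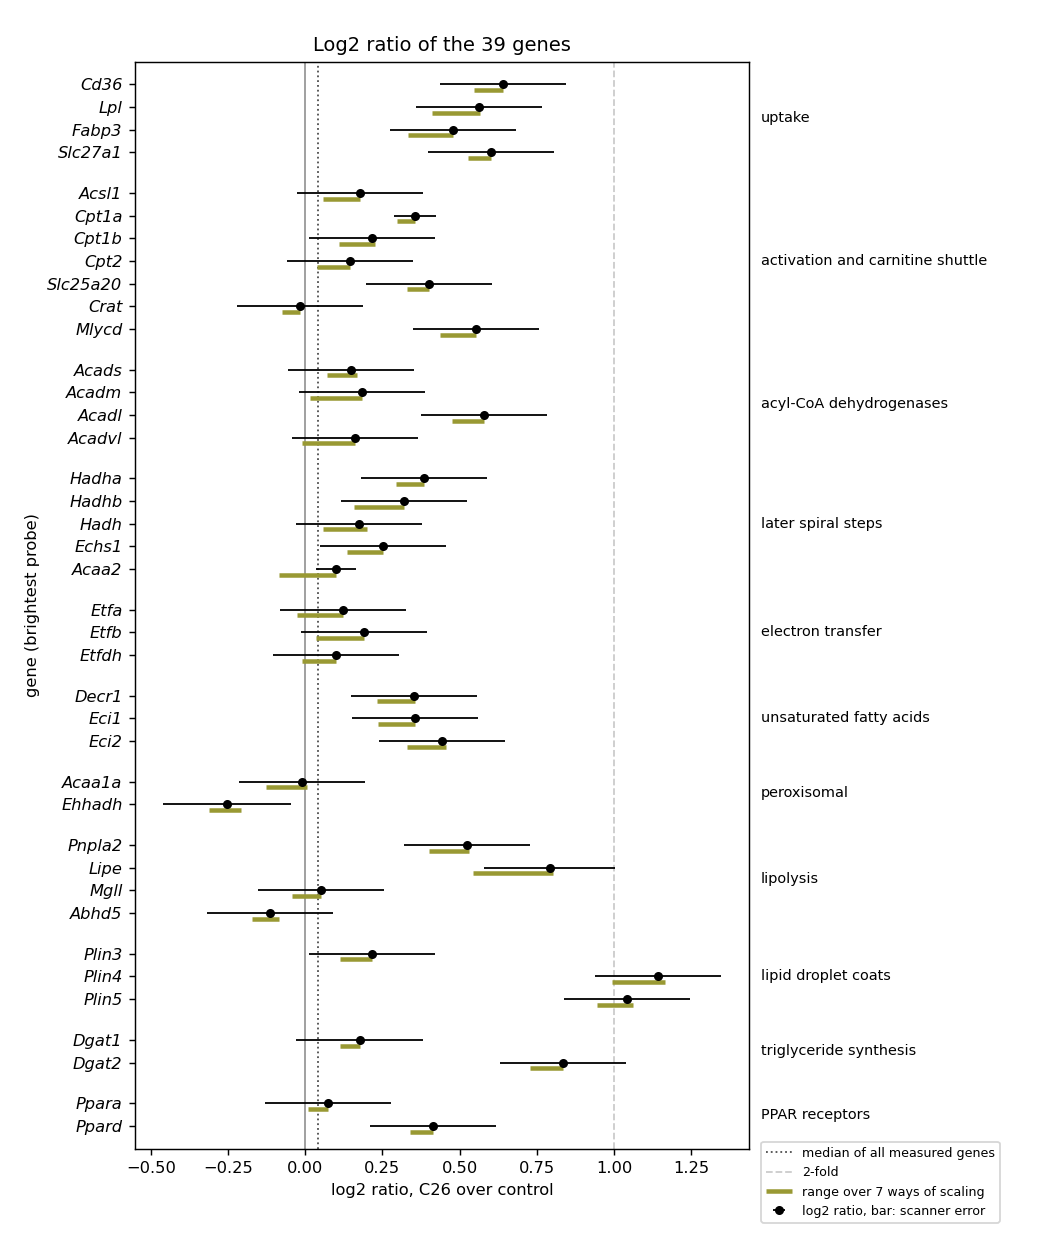
Log2 ratio, C26 over control, of the same 39 genes, with the scanner error as a bar and the range over 7 ways of scaling as a thick line. Plin4 and Plin5, at 1.14 and 1.04, lie farthest to the right, and the uptake genes lie between 0.48 and 0.64.

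Plin4 and Plin5, 2 of the 3 lipid droplet coat genes among the 39, gave the largest differences of the list. Plin4, a perilipin of muscle and fat cells, had scaled signals of 71.5 and 158. Its log2 ratio was 1.14 (error 0.20), or 2.21-fold higher in C26. Plin5, which coats droplets next to mitochondria in oxidative tissue, had 12.3 and 25.2, a log2 ratio of 1.04 (error 0.20). Plin3, a broadly expressed perilipin, differed less, with 14.2 and 16.5 and a log2 ratio of 0.22. Plin2, a perilipin outside the 39 genes, had 5.58 and 5.05, a log2 ratio of -0.15. It is named outside the rule for lists because it also coats droplets. The values of Plin4 and Plin5 sit at the edge of the 2-fold size. Over the scalings Plin4 ranged from 0.99 to 1.17 and Plin5 from 0.95 to 1.06, so that between 0 and 2 of the 39 genes passed 2-fold.

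Some lipid genes of muscle are also abundant in fat cells, so markers of adipocytes were read beside these values. Of 12 adipocyte markers, all 12 were measured and 10 had log2 ratios above 0, with a median of 0.24; the summed scaled signals of the list were 205 and 274, and no marker was at 0. Adig was highest at 0.70, while another Adig probe gave 0.07, and Lep (leptin) was lowest at -0.66. Plin1, the perilipin of fat cells, had scaled signals of 2.15 and 2.09, a log2 ratio of -0.04, and Adipoq (adiponectin) had 5.95 and 7.37, a log2 ratio of 0.31; both are named outside the rule for markers because they define the cell type. Among 5 brown fat markers, Ucp1 and Elovl3 were not well above background on both arrays, and Dio2 and Cidea were the lowest and highest measured at -0.70 and 0.88. In whole muscle, more cells of a type and more RNA per cell cannot be told apart, and the part of fat cells in the values of the 39 genes was not tested.

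Plin4 and Plin5 are neighbours, and the genes beside them were read from their own probes. The Plin4 probe lies on chromosome 17 at 56240055 to 56240114 and the Plin5 probe at 56251025 to 56251084, both on the minus strand of mm9, the build of the array files. Beyond Plin5 lie Lrg1, a secreted glycoprotein of the acute phase, at a log2 ratio of 1.59 (error 0.20), and Sema6b, a semaphorin, at 0.91 (error 0.24). These 4 probes fall within 22774 bases. The other 10 measured probes within 100000 bases on either side lay between -0.24 and 0.53. The probe of Hdgfl2 is the nearest to that of Plin4 on the other side and had a log2 ratio of 0.28, and Plin3, 178374 bases away, had the 0.22 given above. This run of neighbours was noticed after the values were seen, and Sema6b was dim on both arrays, with scaled signals of 0.232 and 0.437.

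**Figure D3:**
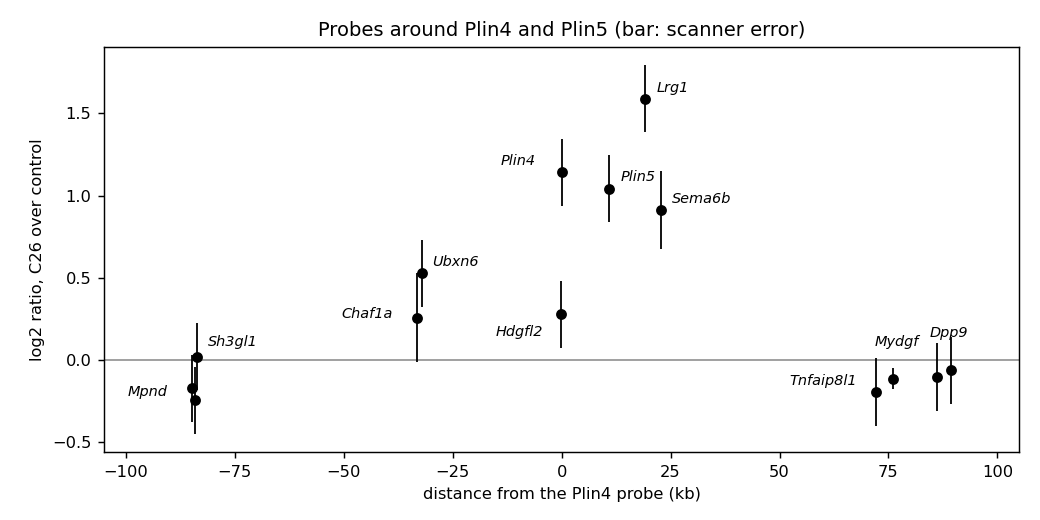
Log2 ratio, C26 over control, of each measured probe by its distance in kilobases from the Plin4 probe, with scanner errors as bars. Plin4, Plin5, Lrg1 and Sema6b lie between 0.91 and 1.59, and the other 10 probes between -0.24 and 0.53.

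The promoters of both perilipin genes are shown because they belong to the genes with the largest differences. Each is the RefSeq window of 250 bases before to 50 bases after the start, on GRCm38.p6, with capitals for 2 motifs searched on both strands: AGGTCA, the half-site of nuclear receptors such as the PPARs, and TATAA, the core of the TATA box, which was chosen after the sequences had been read. Plin4 is at chr17:56109733-56110032 and the upstream start of Plin5 at chr17:56117499-56117798, both on the minus strand.
Plin4: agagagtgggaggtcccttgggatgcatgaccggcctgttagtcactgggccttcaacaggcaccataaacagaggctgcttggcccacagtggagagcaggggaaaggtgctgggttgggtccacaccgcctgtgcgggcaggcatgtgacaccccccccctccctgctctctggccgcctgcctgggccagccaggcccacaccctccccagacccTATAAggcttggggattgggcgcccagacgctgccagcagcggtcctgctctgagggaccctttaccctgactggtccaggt
Plin5: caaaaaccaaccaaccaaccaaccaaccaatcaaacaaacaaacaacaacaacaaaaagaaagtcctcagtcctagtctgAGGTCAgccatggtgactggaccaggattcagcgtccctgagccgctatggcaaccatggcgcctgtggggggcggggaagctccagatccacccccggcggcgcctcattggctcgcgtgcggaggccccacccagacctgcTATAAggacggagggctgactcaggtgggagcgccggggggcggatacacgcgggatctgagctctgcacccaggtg
TATAA begins 32 bases before the start in Plin4 and 27 bases before it in Plin5. Of the 39 genes, 32 had a window in the table, 38 windows in all, and these were the only 2 windows with TATAA (5.26%), against 24.9% of the 32851 windows of all genes. AGGTCA was found in 8 of the 38 windows (21.1%), against 16.3% of all windows, among them both starts of Plin5, and not in that of Plin4. A match describes the letters alone.

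Genes that make or break down stored triglyceride differed among themselves. Dgat2, which adds the last fatty acid to triglyceride, had scaled signals of 20.6 and 36.8. Its log2 ratio was 0.83 (error 0.20), whereas that of Dgat1, the other enzyme of this step, was 0.18 from signals of 1.41 and 1.59. Lipe (hormone-sensitive lipase) was dim, at 0.448 and 0.775, with a log2 ratio of 0.79 (error 0.21) that was 0.54 with normexp background correction. Pnpla2 (ATGL), which starts the breakdown of triglyceride, had 60.9 and 87.5, a log2 ratio of 0.52. Of the genes whose proteins act with it or after it, Abhd5 and Mgll had lower log2 ratios by their brightest probes, while that of Lipe was higher. Abhd5 (CGI-58), the coactivator of ATGL, had 2.48 and 2.30, a log2 ratio of -0.11, but its other 2 probes gave 0.17 and 0.18. Mgll, the last lipase of the chain, had 15.6 and 16.2, a log2 ratio of 0.05.

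All 4 uptake genes were higher in the C26 array, by similar amounts. Cd36, a fatty acid translocase of the plasma membrane, had scaled signals of 11.4 and 17.8, a log2 ratio of 0.64 (error 0.20). Slc27a1 (FATP1), a fatty acid transport protein, had 5.05 and 7.66, a log2 ratio of 0.60 (error 0.20), which is 1.52-fold and just inside the 1.5-fold size. Lpl (lipoprotein lipase) had 86.3 and 127, a log2 ratio of 0.56, and its second probe gave 0.48. Fabp3, the fatty acid binding protein of heart and muscle, followed at 266 and 370, with a log2 ratio of 0.48 and of 0.52 from an overlapping probe. The 4 values differ from each other by less than the scanner error of one of them.

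Capillary endothelium also carries Cd36 and anchors lipoprotein lipase. Of 12 endothelial markers, all 12 were measured and 12 had log2 ratios above 0, with a median of 0.49 and summed scaled signals of 124 and 176; none was at 0. They ran from Kdr at 0.01, a second probe of which gave -0.63, to Cldn5 at 1.30. Gpihbp1, which holds lipoprotein lipase on the capillary wall, had scaled signals of 12.7 and 23.7, a log2 ratio of 0.91. The part of endothelial RNA in the uptake genes was not tested. Of the 11 macrophage markers 9 were measured, with a median of -0.17 and a summed signal of 30.4 and 23.4, from Cd68 at -1.35 to Mertk at 0.22. Of the 8 erythroid markers 7 were found on the array and 3 were measured, and these 3 ran from Hba-a1 at 1.37 to Slc4a1 at 2.43. The cardiac markers measured, 3 of 5, lay between -0.02 for Myh6 and 0.15 for Nppa.

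Activation and mitochondrial entry gave smaller differences, with 6 of 7 genes above 0 and a median of 0.22. Mlycd (malonyl-CoA decarboxylase), which removes the inhibitor of the carnitine shuttle, was highest, at scaled signals of 38.7 and 56.7 and a log2 ratio of 0.55. Slc25a20, the carnitine-acylcarnitine translocase, had 3.57 and 4.71, a log2 ratio of 0.40. Cpt1b, the muscle form of the enzyme that commits acyl groups to the shuttle, had 28.7 and 33.4, a log2 ratio of 0.22, and 0.37 from its second probe. The remaining log2 ratios were smaller: 0.18 for Acsl1, the acyl-CoA synthetase, 0.14 for Cpt2, the inner-membrane transferase, and -0.02 for Crat (carnitine acetyltransferase).

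Cpt1a, the form of the enzyme best known from liver, was printed in 9 usable spots on each array, which allowed a check of spot error. Its scaled signal ran from 1.58 to 1.81 in the control, with a median of 1.72, and from 2.13 to 2.26 in C26, with a median of 2.15. The spots of the 2 arrays did not overlap, and the log2 ratio was 0.36 (error 0.07). The share of all probes in copies whose spots did not overlap is not given here, so this does not mark Cpt1a out. A second, dimmer Cpt1a probe gave -0.03 (error 0.24). Acaa2, the mitochondrial thiolase, had 10 spots per array, from 143 to 154 in the control and from 153 to 164 in C26. Those spots overlapped, and the log2 ratio was 0.10 (error 0.06), a sign that turned with quantile normalization, loess and the deposited table. The copies share one RNA sample and say nothing of the spread between mice.

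The enzymes of the mitochondrial spiral, with the electron transfer flavoprotein and the enzymes for unsaturated fatty acids, were all slightly higher in the C26 array. All 15 had log2 ratios above 0, from 0.10 to 0.58, with a median of 0.19. Acadl, the long-chain acyl-CoA dehydrogenase, was highest, with scaled signals of 18.8 and 28.1 and a log2 ratio of 0.58, which is 1.49-fold and just outside the 1.5-fold size. The other acyl-CoA dehydrogenases, Acads, Acadm and Acadvl for short, medium and very long chains, had log2 ratios of 0.15, 0.18 and 0.16. With quantile normalization 11 of the 15 were above 0, and with loess 12.

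The enzymes of unsaturated fatty acids stood above most of the spiral, at a median log2 ratio of 0.36. Decr1, the 2,4-dienoyl-CoA reductase, had scaled signals of 58.6 and 74.8, a log2 ratio of 0.35, and its second probe gave 0.10. Eci1 and Eci2, isomerases that shift the double bond, had log2 ratios of 0.36 and 0.44; the Eci1 probe covers 1398 bases of the genome and so spans an intron. The electron transfer genes Etfa, Etfb and Etfdh were low within the spiral, at 0.12, 0.19 and 0.10, and a second Etfa probe gave -0.06.

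Hadha and Hadhb, the subunits of the mitochondrial trifunctional protein, had similar log2 ratios, 0.38 (error 0.20) from scaled signals of 10.2 and 13.4, and 0.32 (error 0.20) from 112 and 139. These genes lie head to head on chromosome 5, and their RefSeq windows overlap, with start sites 273 bases apart. The overlap, chr5:30155003-30155230 on the plus strand of GRCm38.p6, is shown because it lies upstream of both genes; it holds no match to AGGTCA or TATAA.
Hadha and Hadhb overlap: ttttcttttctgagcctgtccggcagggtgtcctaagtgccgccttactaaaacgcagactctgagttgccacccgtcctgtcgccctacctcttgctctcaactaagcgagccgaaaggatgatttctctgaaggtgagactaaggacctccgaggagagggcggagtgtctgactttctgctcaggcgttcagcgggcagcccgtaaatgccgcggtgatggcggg
Their partners in the spiral, Hadh (short-chain hydroxyacyl-CoA dehydrogenase) and Echs1 (enoyl-CoA hydratase), had log2 ratios of 0.17 and 0.25.

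The peroxisomal role had the lowest median log2 ratio of the roles, -0.13 over 2 genes. Ehhadh, the bifunctional enzyme of peroxisomes, had scaled signals of 0.768 and 0.645, a log2 ratio of -0.25 (error 0.21). Acaa1a, a peroxisomal thiolase, had 35.2 and 35.0, a log2 ratio of -0.01 that was 0.0062 with normexp correction; it has a close paralog, Acaa1b, whose own probe also gave -0.01. Among the receptors, Ppard, the main PPAR of muscle, had 4.10 and 5.46, a log2 ratio of 0.41, and Ppara had 6.28 and 6.61, a log2 ratio of 0.07 with 0.06 and 0.15 from its other probes.

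Where a gene had several measured probes, they served as a check on its value. This was so for 11 genes, and for 6 of them all probes had the same sign. Probes of both signs were found for Abhd5, Cpt1a, Cpt2, Etfa and Mgll, each with differences under 0.39. The remaining 28 genes, Plin4, Plin5, Dgat2, Lipe, Cd36 and Slc27a1 among them, had 1 probe and no such check. Of 54 probes in all, 53 were well above background on both arrays.

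**Figure D4:**
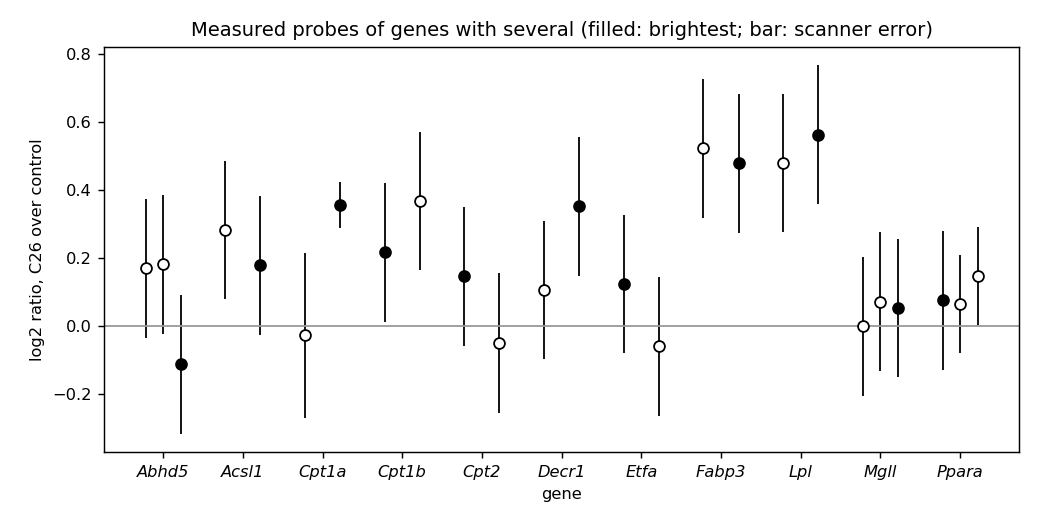
Log2 ratio, C26 over control, of every measured probe of the 11 genes with several, with scanner errors as bars; filled points are the brightest probes. The probes of Fabp3 and Lpl lie between 0.48 and 0.56, and those of Cpt1a at -0.03 and 0.36.

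As a group, the spiral enzymes had a higher median log2 ratio than the respiratory chain and the TCA cycle, the other mitochondrial pathways read here. Of 42 respiratory chain subunits, all measured, 36 had log2 ratios below 0, with a median of -0.09 and a range of -0.31 for Cyc1 to 0.16 for Ndufa2. Over all 19668 measured genes, 8565 were below 0. By brightest probes, none of the 42 reached the spiral median of 0.19 (1 did with quantile normalization and with the deposited table). Of the 15 spiral genes, 11 exceeded the highest subunit (7 under those settings). Single probes can differ: the 4 measured probes of Ndufb5, named outside the rule for lists, ran from -0.49 to 0.24. The median of the spiral lay 0.28 above that of the chain, and between 0.28 and 0.32 above it under every scaling, although both medians shifted. With quantile normalization that of the spiral was 0.07, and 11 of its 15 genes were above 0. The skeletal muscle markers, at a median of 0.15 with 13 of 14 above 0, stood close to the spiral. The TCA cycle had a median of -0.08 over 15 genes, 10 of them below 0, from Idh3a at -0.32 and Mdh2 at -0.18 to Idh2, the NADP-dependent isocitrate dehydrogenase, at 0.44. Without replicates this difference between groups of genes has no test.

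Other genes of fatty acid handling had group medians near 0, although single genes among them were clearly higher. Of 41 further genes of uptake, activation and oxidation, 38 were measured, with a median of -0.01 and 17 above 0; none was 2-fold different. Gpihbp1 led at 0.91, followed by Slc27a3 at 0.60 and the auxiliary isomerase Ech1 at 0.51, and Acad8, Cpt1c and the fatty acid binding protein Fabp5 were lowest at -0.52, -0.52 and -0.49. Of 29 further genes of lipolysis, droplets and triglyceride synthesis, 27 were measured, with a median of 0.07. At least 1.5-fold, 6 of the 27 were higher and 0 lower, against 4.37% and 4.83% of all measured genes. G0s2, an inhibitor of ATGL, had scaled signals of 2.95 and 7.50, a log2 ratio of 1.35 (error 0.20), and the acyltransferase Gpat3 had 1.11. They were the 2 genes of that list at least 2-fold higher, against 1.25% of all measured genes. Pnpla3 followed at 0.91, with 0.12 from a second probe, and Aqp7, Lpin2 and Gpd1 were lowest at -0.39, -0.33 and -0.26.

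Genes known to respond to fasting or to PPAR ligands gave the largest values near this pathway. Their list was chosen with earlier results of these data known, so its values and counts are a description only. Of 19, 17 were measured, 12 were above 0, and 7 were at least 2-fold higher, with a median of 0.29. Besides the thioesterases Acot1 and Acot2, at 2.42 and 1.37, and Pdk4 at 2.26, these included Angptl4, an inhibitor of lipoprotein lipase, at scaled signals of 3.22 and 7.97 and a log2 ratio of 1.31, and the uncoupling proteins Ucp2 and Ucp3 at 1.14 and 1.12. Over the scalings the log2 ratio of Ucp2 went down to 0.96. Oxct1, which lets tissues burn ketone bodies, was lowest, at 95.7 and 63.4 and a log2 ratio of -0.59, followed by Acot7 and Acot3 at -0.21 and -0.17.

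**Figure D5:**
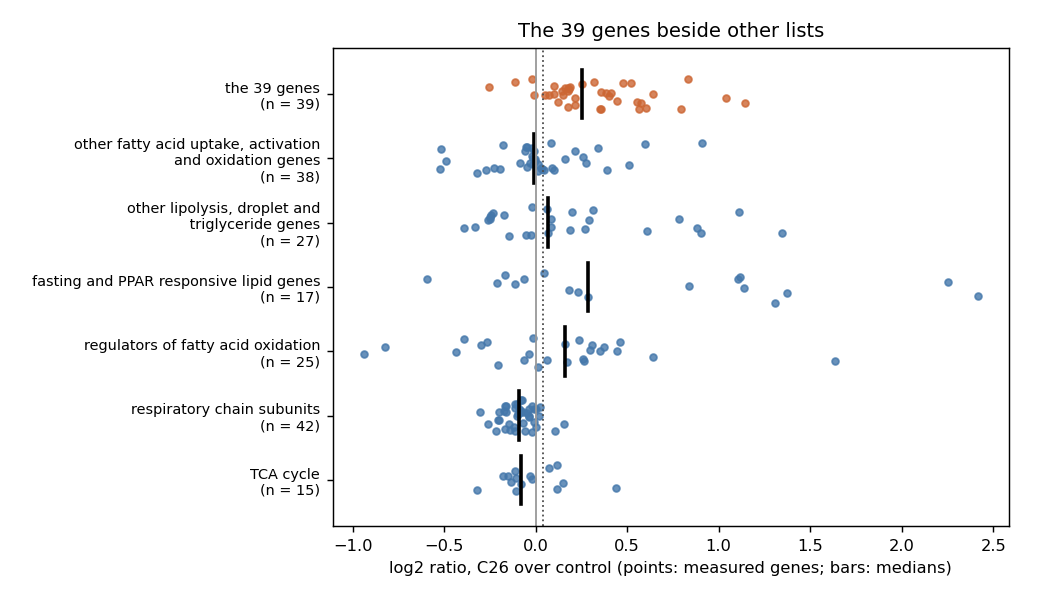
Log2 ratio, C26 over control, of the measured genes of each list, with list medians as bars, 0 as a solid line and the median of all measured genes as a dotted line. The 39 genes have a median of 0.25, the respiratory chain subunits of -0.09 and the TCA cycle of -0.08.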

How the data were processed

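Skeletal muscle RNA of 1 control and 1 C26 sample was labelled with Cy3, per the labels. Per the file headers, spots were read with Agilent Feature Extraction 10.7.1.1, while the submitters' processing notes list 9.5.1.1. The deposited scanner values are intensity on a linear scale, background-subtracted and detrended within each array, per the file headers. The deposited value table, also intensity, had 99.9% of its values within 0.01 (log2) of the quantile-normalized scanner signal, and served as an alternative.

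Outlier spots (110 and 91 of 59305) were left out and spots of a probe averaged as log2. Each array's 75th percentile over non-control probes was subtracted. The brightest probe stood for a gene, which counted as measured if both arrays had it well above background. No spot was saturated, and a surrogate stood for 31.9% and 25.6% of spots, so low signals are less precise. Names of 31381 of 55680 probes matched the reference table (GRCm38.p6, for names). With 1 array per group no test was possible; counts use fixed sizes of 2-fold and 1.5-fold. The computation was tested on simulated data.

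The members and lists were chosen with earlier results of these data known. Any of the 39 genes may be named, with full values for those at least 1.5-fold different or with probes of both signs; other lists give their 3 highest, 3 lowest and 2-fold members, and marker lists their highest and lowest; some genes that the rule names are not reported here. Alternatives were normexp correction (offset 50), quantile, median, detected-probe and loess (span 0.3) scaling, the deposited table, mean or median over probes, and no or a stricter filter on dim probes (4 times the lowest signal above background). Python 3.11.15, numpy 2.4.6, pandas 2.3.3, statsmodels 0.14.6, matplotlib 3.10.9, R 4.3.3 and limma 3.58.1 were used.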

Additional observations from a re-analysis of the deposited data

How the results depend on the processing

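The number of arrays limits every value, and dim probes such as that of Lipe limit precision further. The median log2 ratio of the 39 genes, 0.25, was 0.21 with median scaling, 0.19 with the percentile over detected probes, 0.15 with quantile normalization and with the deposited table, and 0.14 with loess. Without the acyl-CoA dehydrogenases or without the peroxisomal genes it was 0.32, and without the electron transfer genes 0.33. The count at least 2-fold higher, 2, was 1 with median scaling, the percentile over detected probes and loess, and 0 with quantile normalization and the deposited table. The count at least 1.5-fold higher, 6, lay between 4 and 6, none was 1.5-fold lower under any alternative, and 30 to 36 genes were above 0. That count above 0, and the gap of the median to that of all measured genes, were added after seeing the data; the gap, 0.21, was 0.16 with quantile normalization, loess and the deposited table and 0.29 with no filter on dim probes, which adds dim genes to the comparison. Over all measured genes, 245 were 2-fold higher and 226 lower, 131 and 65 with normexp, 1579 and 1316 with no filter, and 170 and 130 with the stricter one; the higher share, 52.0%, was 66.8% with normexp and between 43.0% and 47.5% with the other scalings. The log2 ratio of Lipe was 0.54 with normexp, that of Cpt1a 0.16 with the mean over its probes and that of Abhd5 0.17 with the median over its probes. The cause of these shifts was not tested. No paired analysis was possible because each group has 1 array.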

Other observations

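Regulators of fatty acid oxidation showed no common direction. Of 26 listed, 25 were measured, 15 had log2 ratios above 0 and the median was 0.16. Foxo1, a transcription factor of fasting, was the 1 gene at least 2-fold higher, with scaled signals, control and C26, of 6.30 and 19.6 and a log2 ratio of 1.64 (error 0.20), and 1.70 from its second probe. Acacb, the carboxylase that makes the malonyl-CoA that Mlycd removes, had 51.6 and 80.4, a log2 ratio of 0.64, so that both the maker and the remover of this inhibitor were higher by similar amounts. Nrip1, a corepressor of oxidative genes, had 0.46. The lowest were Prkag3, the muscle gamma subunit of AMP-activated kinase, at 9.22 and 4.81 and a log2 ratio of -0.94 (error 0.20), Ppargc1b, a coactivator of mitochondrial genes, at 1.07 and 0.607 and -0.82 (error 0.21), and Sirt3, the mitochondrial deacetylase, at -0.44.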
